A study of Mus musculus with 13 samples.

Results

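Skeletal muscle relaxes when SERCA, the calcium ATPase of the sarcoplasmic reticulum, pumps calcium from the cytosol back into the store. Atp2a1 encodes SERCA1, the pump of fast fibres, and Atp2a2 encodes SERCA2, whose SERCA2a form is the pump of slow fibres and heart muscle. Sln (sarcolipin) and Pln (phospholamban) encode small membrane proteins that bind the pump and restrain it. Sarcolipin is known for uncoupling calcium transport from ATP use, and phospholamban for releasing the pump once it is phosphorylated. These 4 genes, chosen by name from the 17924 genes counted, were followed in *mdm* mice, together with the isoform share of the pumps and the amount of regulator per pump in each library. All 4 genes were among the 17069 that passed the filter on low counts.

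RNA of whole extensor digitorum longus (EDL, a fast hind limb muscle), psoas (a hip flexor) and soleus (a slow calf muscle) had been sequenced in 13 libraries, 5 of *mdm* EDL, 5 of *mdm* psoas and 3 of *mdm* soleus. The *mdm* mutation is a recessive deletion in titin at the border of its N2A and PEVK regions, carried on the B6C3Fe a/a-Ttn mdm/J background, and mice homozygous for it develop a progressive muscle disease. Every group used here carried it, and wild-type libraries were not analysed here, so the comparisons are between muscles of diseased mice and none is between genotypes. The mice were 29, 38 or 42 days old for psoas, 38 or 42 days for EDL and 33, 36 and 38 days for soleus. The labels also give each library a code, T1, T3, T4, T5 or T6, without saying what it stands for. The label does not name the animal of a library, so p-values measure the spread between libraries. Library totals ran from 9114176 to 48835209 counts.

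The muscle labels were checked with marker genes. The summed normalized count of 7 slow fibre markers was 300868 to 349827 in soleus, 6767 to 46386 in EDL and 6923 to 45216 in psoas. The summed count of 10 fast fibre markers was 1283340 to 2536390 in EDL, 334720 to 783242 in psoas and 218757 to 241477 in soleus. Soleus was thus the muscle richest in slow fibre RNA, and psoas lay below EDL in fast fibre RNA with no overlap. All 17 of these fibre markers were detected.

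The pumps are long proteins with closely related coding sequences, while the regulators are encoded by single short coding exons. In GRCm38 (GENCODE mouse release 21), Atp2a1 (ENSMUSG00000030730) lies on the reverse strand of chromosome 7, from 126445858 to 126463108, with 3477 exon bases. Atp2a2 (ENSMUSG00000029467) lies on the reverse strand of chromosome 5, from 122453513 to 122502225, with 6081 exon bases. Over 2982 aligned coding bases, 75.0% were identical between the pumps. The longest identical run between their transcripts was 44 bases, shorter than a 75 bp read. Sln (ENSMUSG00000042045) lies on the forward strand of chromosome 9, from 53850164 to 53854560, with 1318 exon bases. Pln (ENSMUSG00000038583) lies on the forward strand of chromosome 10, from 53337667 to 53345987, with 2759 exon bases.

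The coding sequences of both regulators are shown because they are what the small regulators share and where they differ. The Sln coding sequence has 96 bases in 1 exon (chr9:53853473-53853568, forward strand), which is 31 codons before the stop. The Pln coding sequence has 159 bases in 1 exon (chr10:53343864-53344022, forward strand), which is 52 codons before the stop. The capitals mark the most similar stretch of 21 bases, in which 17 bases were identical.

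Sln: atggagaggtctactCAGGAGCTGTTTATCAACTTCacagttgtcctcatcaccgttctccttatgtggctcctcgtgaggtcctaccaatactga

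Pln: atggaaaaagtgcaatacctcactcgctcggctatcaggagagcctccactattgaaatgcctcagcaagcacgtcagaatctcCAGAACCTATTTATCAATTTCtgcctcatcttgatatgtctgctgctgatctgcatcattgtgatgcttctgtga

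The longest run of identical bases between these coding sequences was 8 bases, so reads of 75 bp from these parts differ between the genes. Other genes share exon bases with 3 of the 4. The exons of Pln share 1785 of their 2759 bases with other genes, chiefly with Cep85l on the opposite strand, and those of Atp2a1 share 763 bases with Rabep2 on the opposite strand. The strand setting of the counting is not given in the sources used here, and without strand, reads of a gene and of its antisense partner cannot be told apart. Sln shares no exon base with another gene, and Atp2a2 shares 83.

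Atp2a1, the fast fibre pump, had its highest mean in EDL, a lower one in psoas and the lowest in soleus. Its normalized count (the count divided by the library's size factor) was 28746, 122814, 108252, 54261 and 53085 in EDL replicates 1 to 5. It was 16852, 17320, 32021, 49683 and 43283 in psoas replicates 1 to 5, and 7340, 12073 and 11143 in the soleus libraries. All 3 soleus libraries lay below every EDL and psoas library, whereas EDL replicate 1 lay within the range of psoas. The means were 73432 ± 40092 (SD, n = 5) in EDL, 31832 ± 14873 (n = 5) in psoas and 10185 ± 2507 (n = 3) in soleus.

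**Figure D1:**
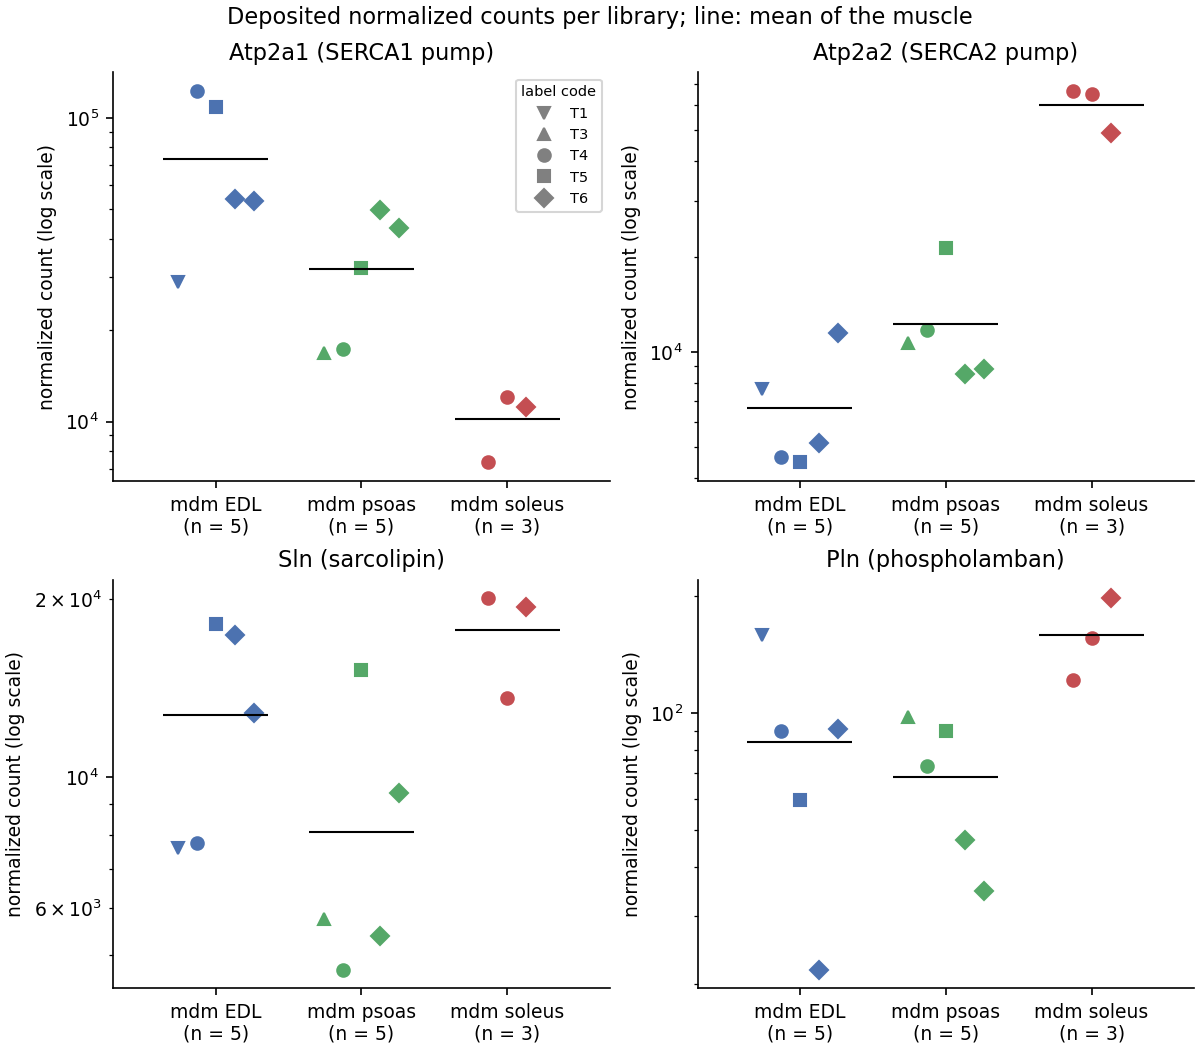
Normalized count (log axis) of each pump and regulator in each library of *mdm* EDL (blue), psoas (green) and soleus (red), with the mean of the muscle as a line and the label code as the symbol. In soleus, Atp2a1 (7340 to 12073) lies below and Atp2a2 (49182 to 66697) above every library of the other muscles, while Sln overlaps between all muscles.

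In edgeR's quasi-likelihood test, Atp2a1 differed between soleus and EDL by a log2 fold change of -2.85 (SE 0.55, 95% interval -4.02 to -1.68). The Benjamini-Hochberg adjusted p was 0.0109, just outside the limit of 0.01 that, with an absolute log2 fold change over 1, defined a differentially expressed gene. The difference passed with the DESeq2 Wald test (-2.87, adjusted p = 9.61e-08), which called 3.71% of all genes, and in edgeR without EDL replicate 1 (-3.06, adjusted p = 0.00901) or without psoas replicate 1 (-2.85, adjusted p = 0.00925). Of the 13 edgeR fits that each left out 1 library, only these 2 passed, and the adjusted p rose to 0.0708. The difference missed the limit in edgeR with the label code (0.0132) or the replicate number (0.0218) as a block. It also missed in the edgeR fit of those muscles alone (0.0157). Between soleus and psoas the edgeR value was -1.64 (SE 0.51, adjusted p = 0.200). For psoas against EDL it was -1.22 (SE 0.42, 95% interval -2.11 to -0.32, adjusted p = 0.0583). Neither passed. Atp2a1 was lower in psoas in 5 of 5 same-numbered pairs with EDL, and with the pairs as a block its log2 fold change was -1.12 (edgeR adjusted p = 0.0795). The labels do not say that a pair is 1 mouse, and the libraries of replicate 1 differ in age (38 and 29 days), so that pair is not 1 mouse. It was kept in the counts of pairs and in the block. The share of all genes that were lower in psoas in every pair was not counted.

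Atp2a2, the slow fibre and cardiac pump, was the pump of soleus. Its normalized count was 66697, 65169 and 49182 in the soleus libraries. In EDL replicates 1 to 5 it was 7613, 4644, 4481, 5144 and 11446, and in psoas replicates 1 to 5 it was 10678, 11718, 21333, 8506 and 8810. All soleus libraries stood above every library of the other muscles, and EDL and psoas overlapped. The means were 60349 ± 9701 (SD, n = 3) in soleus, 6666 ± 2955 (n = 5) in EDL and 12209 ± 5270 (n = 5) in psoas.

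Atp2a2 rose in soleus against EDL by a log2 fold change of 3.19 (SE 0.37, 95% interval 2.39 to 3.98, edgeR adjusted p = 0.000575). It was the only 1 of the 4 genes to be differentially expressed there, where 0.978% of all genes tested were. This call held in each of the 19 other settings run, and over the 13 fits that each left out 1 library its adjusted p ran from 0.000384 to 0.00539. Against psoas the log2 fold change was 2.31 (SE 0.36, 95% interval 1.53 to 3.09), with an edgeR adjusted p of 0.0121 that missed the limit. That difference passed with the DESeq2 Wald test (adjusted p = 2.82e-07), and in edgeR without psoas replicate 3 (2.603, adjusted p = 0.00890) or without EDL replicate 5 (2.31, adjusted p = 0.00928). Of the 13 edgeR fits that each left out 1 library, only these 2 passed, and the adjusted p rose to 0.0621. The difference missed the limit in edgeR with the label code (0.0355) or the replicate number (0.131) as a block. It also missed in the edgeR fit of those muscles alone (0.0205). For psoas against EDL the log2 fold change was 0.88 (SE 0.32, edgeR adjusted p = 0.0728), and Atp2a2 was higher in psoas in 4 of 5 same-numbered pairs. A count over the gene does not separate SERCA2a from the widely expressed SERCA2b form.

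None of the 4 genes was differentially expressed by edgeR between psoas and EDL, where 4.93% of all genes were, or between soleus and psoas, where 0.0762% were. At an unadjusted p under 0.05, both pumps differed between psoas and EDL (33.3% of all genes did), and all 4 genes differed between soleus and psoas (12.7% of all genes did). DESeq2 called 0 of the 4 genes between psoas and EDL (9.29% of all genes) and 1, Atp2a2, between soleus and psoas (1% of all genes). Both pumps were without overlap between soleus and EDL (11% of all genes were), and both pumps and Pln between soleus and psoas (10.2% of all genes were). None of the 4 was without overlap between psoas and EDL, where 13% of all genes were.

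**Figure D2:**
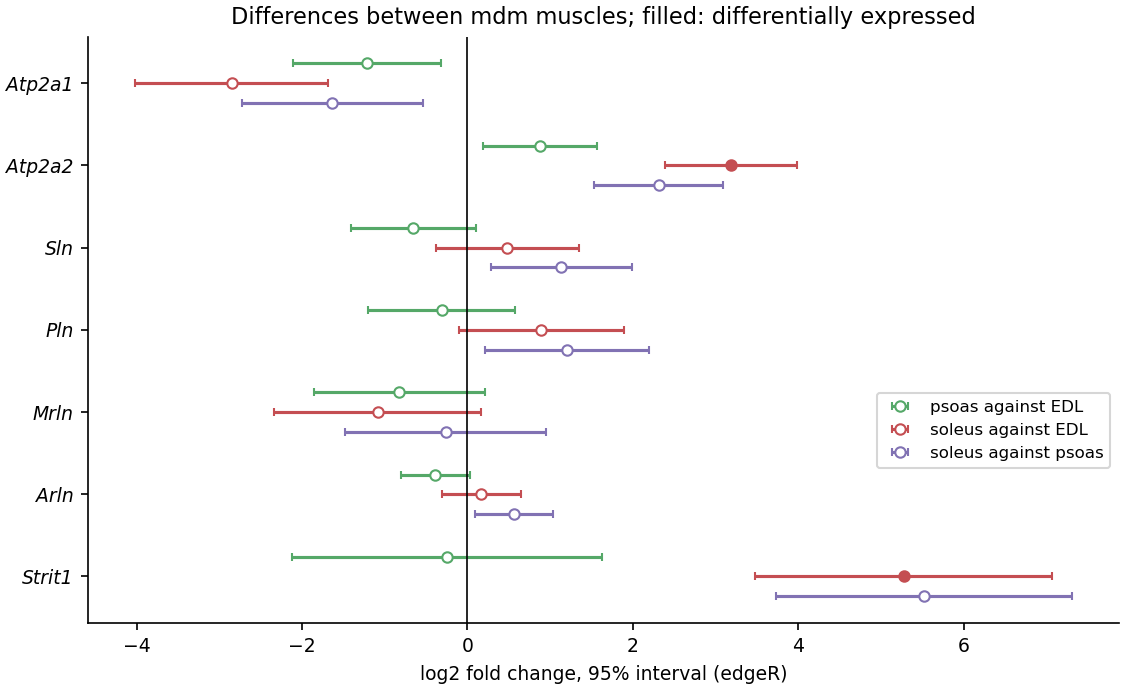
Log2 fold change (x axis) with its 95% interval from edgeR for the pumps, the regulators and the other small regulators measured, in psoas against EDL (green), soleus against EDL (red) and soleus against psoas (purple). Filled points are differentially expressed, which are Atp2a2 (3.19) and Strit1 (5.28) in soleus against EDL. Strit1 passed the filter on low counts only through soleus.

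The psoas–EDL difference in the pumps was not alike in all label codes. Within T6, which holds 2 EDL and 2 psoas libraries, the log2 difference in CPM (counts scaled to the size of the library) between psoas and EDL was -0.20 for Atp2a1 and 0.18 for Atp2a2. Within T4 it was -2.86 and 1.30, and within T5 it was -1.77 and 2.24, with 1 library of each muscle in both codes. The pumps of both muscles were thus closest within T6. The soleus differences were present in both codes that hold soleus, T4 with 2 soleus libraries and T6 with 1. Atp2a2 was higher in soleus than in EDL by 3.81 on the log2 scale within T4 and by 2.69 within T6, and Atp2a1 differed by -3.72 and -2.25. Against psoas, Atp2a2 differed by 2.51 within T4 and also by 2.51 within T6, and Atp2a1 by -0.87 and -2.05.

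Levels of different genes were compared as normalized counts per kb of exon. On this scale Atp2a1 made up 86.8%, 97.9%, 97.7%, 94.9% and 89.0% of the pump transcripts in EDL replicates 1 to 5. In psoas the share was 73.4%, 72.1%, 72.4%, 91.1% and 89.6%, with the higher values in both T6 libraries. In soleus it was 16.1%, 24.5% and 28.4%. Atp2a1 was thus the main pump transcript in every EDL and psoas library and Atp2a2 in every soleus library. The mean share was 93.3% ± 5.1 (SD, n = 5) in EDL, 79.7% ± 9.7 (n = 5) in psoas and 23.0% ± 6.3 (n = 3) in soleus.

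**Figure D3:**
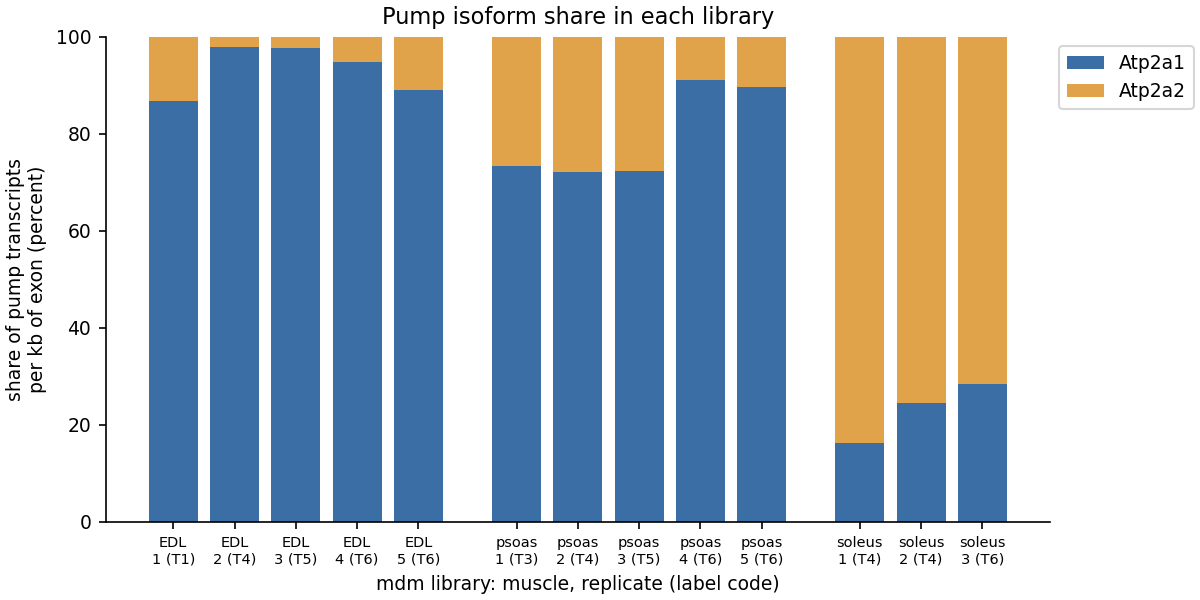
Share of Atp2a1 (blue) and Atp2a2 (orange) among pump transcripts per kb of exon, in percent, with 1 bar for each *mdm* library named by muscle, replicate and label code. Atp2a1 takes 86.8% to 97.9% in EDL, 72.1% to 91.1% in psoas and 16.1% to 28.4% in soleus.

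As a ratio of levels per kb, Atp2a1 to Atp2a2 was 62.1 times lower in soleus than in EDL and 15.1 times lower than in psoas (geometric means, on which no test was run). Between psoas and EDL the log2 ratio differed by -2.04, and the libraries overlapped. Within T6 that difference was -0.38, against -4.16 within T4 and -4.01 within T5. Both pumps together came to 9519, 36086, 31871, 16452 and 17150 normalized counts per kb in EDL replicates 1 to 5, to 6603, 6908, 12717, 15688 and 13897 in psoas and to 13079, 14189 and 11293 in soleus. Soleus lay inside the range of both other muscles. The mean log2 total differed by -0.92 between psoas and EDL, by -0.63 between soleus and EDL and by 0.29 between soleus and psoas, with overlap each time.

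Fibre markers were set beside the pumps. The slow fibre sum of soleus did not overlap with that of EDL or psoas, as given above, and 3 of its 7 genes rose in soleus against EDL by the same edgeR test (Tnni1, Tpm3 and Myl3), where 0.978% of all genes were called. Between psoas and EDL 0 of the 7 were called, 0 had an unadjusted p under 0.05 and their median log2 fold change was -0.23, while that of Atp2a2 was 0.88. Myh7, the slow myosin heavy chain, had 98825 to 182496 normalized counts in soleus, 700 to 11097 in EDL and 271 to 20950 in psoas. Of the 10 fast fibre markers, 6 fell in soleus against EDL and 5 in psoas against EDL, where 4.93% of all genes were called. Between soleus and psoas edgeR called 0 of the 17 fibre markers, although 7 slow and 5 fast markers had an unadjusted p under 0.05. Myh4, the myosin of the fastest fibres, fell in psoas against EDL by 4.18 on the log2 scale (SE 0.69, edgeR adjusted p = 0.00223). In whole muscle, fewer fibres of a type and less RNA per fibre cannot be told apart.

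Other cells were also measured. The summed count of 6 adipocyte markers was 52159 to 82361 in soleus, 9039 to 27791 in EDL and 14160 to 41341 in psoas. Of the 6, Adipoq and Cfd rose in soleus against EDL, where 0.978% of all genes were called. Ucp1, the marker of brown fat, lay the other way, with 0.828 to 3.44 normalized counts in soleus, 5.10 to 79.5 in EDL and 6.52 to 4911 in psoas, and did not pass in any comparison. Neither 7 smooth muscle markers (2939 to 5268 in soleus, 1833 to 3628 in EDL and 2890 to 11838 in psoas) nor 5 macrophage markers (4657 to 8948, 4254 to 14882 and 3577 to 13301) set soleus apart. Of those, 1 gene was called, Acta2, which rose in psoas against EDL, where 4.93% of all genes were called. Of 6 cardiac markers 3 had a value, with summed counts of 612 to 2950 in soleus, 569 to 1405 in EDL and 1120 to 2544 in psoas, almost all of it Tnnt2, and Ryr2 had at most 23.8 in any library. The part of these cells in the pump and regulator values was not tested.

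Sln was among the most abundant transcripts of all 3 muscles and did not separate them. Its normalized count was 7576, 7745, 18141, 17417 and 12848 in EDL replicates 1 to 5. It was 5752, 4726, 15183, 5387 and 9409 in psoas replicates 1 to 5, and 20102, 13640 and 19432 in soleus. The soleus libraries were high, but EDL replicates 3 and 4 and psoas replicate 3 lay inside their range. Per kb of exon, Sln ranked 42nd to 182nd among 17833 genes in the libraries of psoas, 72nd to 157th in EDL and 56th to 62nd in soleus.

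The means of Sln were 12745 ± 5066 (SD, n = 5) in EDL, 8091 ± 4363 (n = 5) in psoas and 17725 ± 3553 (n = 3) in soleus. The edgeR log2 fold change was 1.14 between soleus and psoas (SE 0.40, 95% interval 0.28 to 1.99, adjusted p = 0.253). It was 0.48 between soleus and EDL (SE 0.40, 95% interval -0.38 to 1.344, adjusted p = 0.644). For psoas against EDL it was -0.65 (SE 0.36, 95% interval -1.41 to 0.11, adjusted p = 0.213). In order of level, neither soleus and EDL nor EDL and psoas, the neighbours, passed the test, and both their intervals hold 0. The interval between soleus and psoas, the ends of the order, lies above 0, although the adjusted p missed the limit. In same-numbered EDL and psoas libraries, which were taken as pairs, Sln was lower in psoas in 5 of 5 pairs, with an edgeR adjusted p of 0.0714 with the pairs as a block. Both values include the pair of replicate 1, which is not 1 mouse.

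Within the label codes the direction of the Sln differences was the same as over all libraries, with 1 or 2 libraries of a muscle in each code. The log2 difference between soleus and psoas was 1.82 within T4 and 1.45 within T6, and between soleus and EDL it was 1.08 and 0.39. Between psoas and EDL it was -0.74 within T4, -0.27 within T5 and -1.06 within T6. With the code as a block in the edgeR fit, the adjusted p between soleus and psoas was 0.0353, still above the limit.

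Per pump transcript, on the scale per kb of exon, Sln reached the level of the pumps themselves in soleus. The ratio was 1.17, 0.729 and 1.31 in the soleus libraries. It was 0.604, 0.163, 0.432, 0.803 and 0.568 in EDL replicates 1 to 5, and 0.661, 0.519, 0.906, 0.261 and 0.514 in psoas replicates 1 to 5. Soleus replicates 1 and 3 lay above all other libraries, while soleus replicate 2 lay below EDL replicate 4 and psoas replicate 3. The means were 1.07 ± 0.30 (SD, n = 3) in soleus, 0.514 ± 0.24 (n = 5) in EDL and 0.572 ± 0.24 (n = 5) in psoas.

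The mean log2 ratio of Sln to pumps was 1.19 higher in soleus than in EDL and 0.97 higher than in psoas, with a pooled SD of 0.77 and 0.60. It was 2.50 and 0.95 higher than in EDL within T4 and T6, and 0.83 and 1.84 higher than in psoas. Between psoas and EDL it differed by 0.22, and the direction turned with the code, from 1.67 within T4 and 1.07 within T5 to -0.89 within T6. Against each pump alone soleus was apart from both other muscles, while psoas and EDL overlapped. Per Atp2a1 transcript there were 2.98 to 7.22 Sln transcripts in soleus, 0.166 to 0.847 in EDL and 0.286 to 1.25 in psoas. Per Atp2a2 transcript there were 0.966 to 1.82 in soleus, 4.59 to 18.7 in EDL and 1.86 to 4.93 in psoas.

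**Figure D4:**
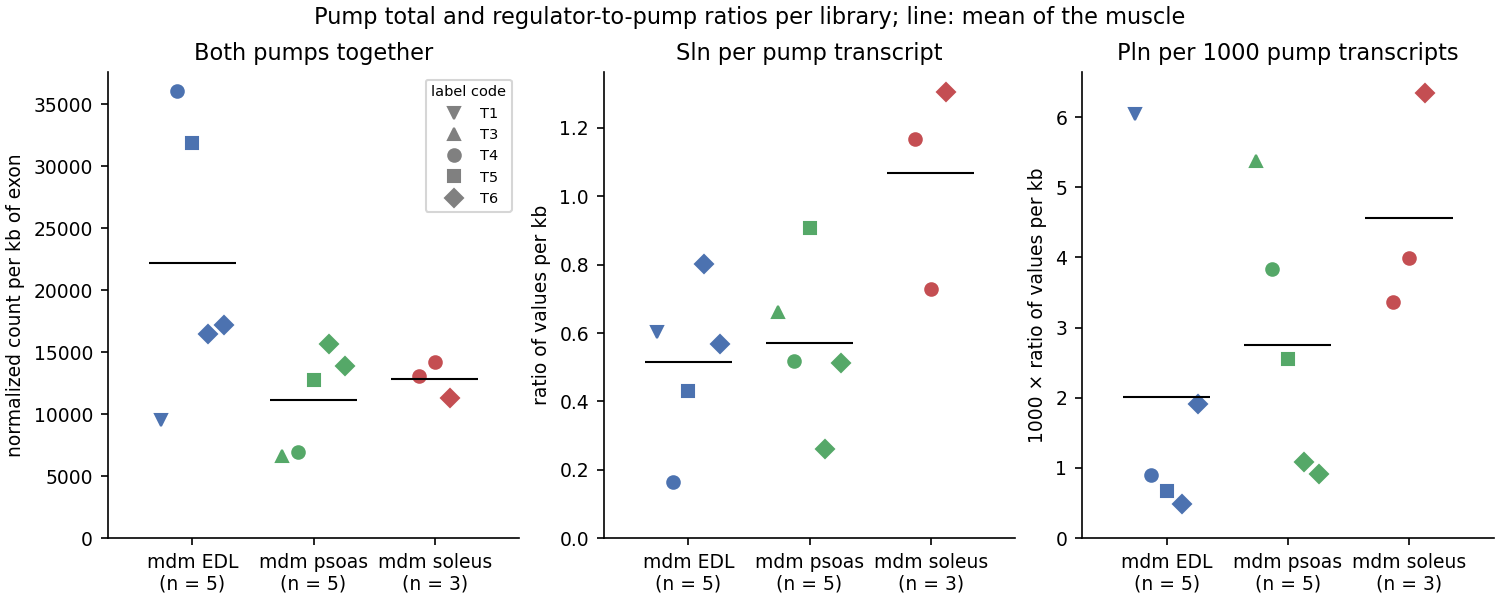
Sum of both pumps (left, normalized count per kb of exon), Sln per pump transcript (middle) and Pln per 1000 pump transcripts (right) in each library of *mdm* EDL, psoas and soleus, with the mean of the muscle as a line and the label code as the symbol. The total overlaps between muscles, Sln per pump reaches 1.17 and 1.31 in soleus replicates 1 and 3, and Pln stays at 0.480 to 6.35 per 1000.

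Pln rested on few reads. Its counts before normalization were 373, 141, 30, 20 and 67 in EDL replicates 1 to 5, 210, 137, 98, 54 and 42 in psoas, and 293, 219 and 115 in soleus. Its normalized count was 159, 90.0, 59.7, 21.8 and 90.6 in EDL replicates 1 to 5, 97.8, 73.2, 89.8, 46.9 and 34.8 in psoas, and 121, 156 and 198 in soleus. Soleus lay above every psoas library, and EDL replicate 1 lay inside the range of soleus. Per kb of exon, Pln ranked between 6029th and 13788th among 17833 genes over all libraries.

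The means of Pln were 158 ± 38 (SD, n = 3) in soleus, 84.2 ± 50.3 (n = 5) in EDL and 68.5 ± 27.1 (n = 5) in psoas. The edgeR log2 fold change was 1.20 between soleus and psoas (SE 0.47, 95% interval 0.21 to 2.20, adjusted p = 0.303). It was 0.89 between soleus and EDL (SE 0.47, 95% interval -0.11 to 1.89, adjusted p = 0.399). It was -0.31 between psoas and EDL (SE 0.41, 95% interval -1.20 to 0.57, adjusted p = 0.641), and 0.05 without EDL replicate 1. Pln was lower in psoas in 3 of 5 same-numbered pairs with EDL and higher in 2. Within T4 and T6, Pln was 0.91 and 2.25 higher in soleus than in psoas on the log2 scale and 0.59 and 2.12 higher than in EDL. T6 holds 1 soleus library. Between psoas and EDL it was -0.32 within T4, 0.57 within T5 and -0.13 within T6.

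Cep85l, whose exons overlap those of Pln, had 230 to 2051 normalized counts in EDL, 213 to 604 in psoas and 194 to 772 in soleus. Its edgeR log2 fold change was -1.29 between psoas and EDL (adjusted p = 0.120), where that of Pln was -0.31. It was -1.20 between soleus and EDL (adjusted p = 0.433), where that of Pln was 0.89, and 0.09 between soleus and psoas (adjusted p = 0.963), where that of Pln was 1.20. Rabep2, which overlaps Atp2a1, had 144 to 831 normalized counts a library. The part of these genes in the counts of Pln and Atp2a1 was not tested.

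For every 1000 pump transcripts, on the scale per kb of exon, there were 6.05, 0.904, 0.679, 0.480 and 1.92 Pln transcripts in EDL replicates 1 to 5. In psoas there were 5.37, 3.84, 2.56, 1.08 and 0.908, and in soleus 3.36, 3.995 and 6.35. EDL replicate 1 and psoas replicate 1, the only libraries of the codes T1 and T3, were the highest of their muscles, and soleus overlapped with both. Against Atp2a2 alone soleus was the lowest by mean, with 4.01 to 8.86 Pln per 1000 Atp2a2 transcripts. The range was 8.71 to 20.2 in psoas and 9.33 to 46.0 in EDL, so soleus overlapped with psoas and not with EDL. Per 1000 Sln transcripts there were 0.597 to 10.01 Pln transcripts in EDL, 1.77 to 8.12 in psoas and 2.88 to 5.48 in soleus. Sln was thus the main regulator transcript of the pair in all 13 libraries. The lengths were also taken without the exon bases that other genes share, a choice made after the overlaps were seen. The counts stayed the same, and only the divisor changed, for Pln from 2759 to 974 bases. The means of Pln per 1000 pump transcripts then came to 4.53 in EDL, 6.42 in psoas and 12.0 in soleus, from 2.005, 2.75 and 4.57. Reads over the shared bases were not removed.

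Of the other small membrane proteins that bind SERCA, 3 of 4 had a value. Strit1 encodes DWORF, which raises pump activity by displacing the inhibitors. Its normalized count was 34.3, 89.3 and 103 in soleus, 4.68, 0, 3.98, 0 and 0 in EDL, and 0.466, 1.60, 3.66, 1.74 and 0.829 in psoas. Every soleus library stood above all others, and the EDL and psoas values came from at most 11 counts a library. Strit1 rose in soleus against EDL by a log2 fold change of 5.28 (SE 0.84, edgeR adjusted p = 0.00468), a value that depends on the prior count where libraries are at 0. Strit1 passed the filter on low counts only through the soleus libraries. The call is therefore a description, since the gene was tested only because it is high in soleus. The call was lost in the fit of those muscles alone (adjusted p = 0.01004), without EDL replicate 3 (0.0107) and without soleus replicate 1, 2 or 3 (0.0150, 0.0240 and 0.0168). Against psoas the log2 fold change was 5.52 (SE 0.84, edgeR adjusted p = 0.0118), and with DESeq2 5.58 (adjusted p = 6.20e-08). In same-numbered pairs with EDL, Strit1 was lower in psoas in 2 of 5 and higher in 3.

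Mrln encodes myoregulin, an inhibitor of the pump in skeletal muscle. Its normalized count was 120 to 367 in EDL, 50.7 to 235 in psoas and 54.99 to 187 in soleus, with overlap between all muscles. The edgeR log2 fold changes were -0.82 between psoas and EDL (adjusted p = 0.252), -1.09 between soleus and EDL (adjusted p = 0.413) and -0.27 between soleus and psoas (adjusted p = 0.867). Mrln was lower in psoas in 5 of 5 same-numbered pairs with EDL, and with the pairs as a block the log2 fold change was -0.99 (SE 0.22, edgeR adjusted p = 0.0121), still outside both limits. With the label code as a block it was -1.02 (adjusted p = 0.0102). Arln, which encodes another-regulin, had 322 to 487 normalized counts in EDL, 238 to 367 in psoas and 338 to 557 in soleus. Its log2 fold changes were -0.39 (adjusted p = 0.174), 0.17 (0.797) and 0.56 (0.316) in the same order. Arln was also lower in psoas in 5 of 5 pairs, with an edgeR adjusted p of 0.0566 with the pairs as a block. For both genes the counts and the block include the pair of replicate 1, which is not 1 mouse.

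The list of calcium handling genes around the pump held 36 genes, of which 34 had a value and were tested. In psoas against EDL 1 rose and 3 fell, beside 4.93% of all genes called, and 19 had an unadjusted p under 0.05, beside 33.3% of all genes. In soleus against EDL 1 rose, Strit1, beside 0.978% of all genes called, and 13 had an unadjusted p under 0.05, beside 15.1%. As given above, Strit1 passed the filter on low counts only through soleus. Between soleus and psoas edgeR called 0, DESeq2 called 1, and 6 had an unadjusted p under 0.05, beside 12.7%. The median log2 fold change of the list was -0.40, -0.02 and 0.13 in these comparisons, beside 0.02, -0.03 and -0.03 for all genes tested.

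Of 8 proteins of the reticulum lumen or partners of the pump, 2 were called in psoas against EDL, both lower, where 4.93% of all genes were called. Of the 8, 7 had an unadjusted p under 0.05 in edgeR, beside 33.3% of all genes, and not all of these were lower. The median log2 fold change of the 8 was -0.79, beside 0.02 for all genes tested. Casq1, the main calcium buffer of the fast fibre store, had 4580 to 12198 normalized counts in psoas and 16081 to 34780 in EDL. It fell by 1.48 on the log2 scale (SE 0.30, edgeR adjusted p = 0.00571), and the call held in 8 of 13 fits that left out 1 library. Hrc, the histidine-rich calcium binding protein of the lumen, had 2356 to 4476 in psoas and 5050 to 13958 in EDL. It fell by 1.54 (SE 0.35, edgeR adjusted p = 0.00953), and the call held in 2 of 13 such fits. Casq2, the calsequestrin of slow fibres and heart, had 12043 to 21831 normalized counts in soleus and 3954 to 14289 in EDL, a difference of 0.87 on the log2 scale (SE 0.32, edgeR adjusted p = 0.190).

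Of 18 genes that set the phosphorylation of phospholamban (subunits of protein kinase A, CaM kinase II and protein phosphatase 1, and their partners), 1 was called between psoas and EDL, a share near the 4.93% of all genes called there, and 0 in the other comparisons. Ppp1r3a encodes the glycogen-targeting subunit of protein phosphatase 1. It had 929 to 2500 normalized counts in psoas and 4845 to 18031 in EDL, and fell in psoas by 2.38 on the log2 scale (SE 0.38, edgeR adjusted p = 0.00203), a call that held in 13 of 13 fits that left out 1 library. Of 6 other calcium pumps 5 had a value, and 1 was called in psoas against EDL, beside 4.93% of all genes. Atp2b4, a calcium pump of the plasma membrane, had 328 to 620 normalized counts in psoas and 170 to 283 in EDL. It rose by 1.01 (SE 0.22, edgeR adjusted p = 0.00875), just over the limit of 1, and the call held in 3 of 13 such fits.

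Markers of regenerating fibres were also measured. The summed count of 7 embryonic or regenerating fibre markers was 68886 to 145847 in psoas, 36734 to 67572 in EDL and 60745 to 180114 in soleus, so psoas lay above EDL without overlap and soleus overlapped with both. Of the 7 genes, Mymk, Myod1 and Myl4 rose in psoas against EDL, where 4.93% of all genes were called. Myh8, the perinatal myosin heavy chain, fell in soleus against EDL (0.978% of all genes called) and against psoas (0.0762%). Myh3, the embryonic myosin, had 50001 to 167407 normalized counts in soleus, 25703 to 86941 in psoas and 10524 to 36382 in EDL. The part of regenerating fibres in the levels of Sln and of the pumps was not tested.

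The genes whose log2 CPM followed each pump most closely over the 13 libraries included sarcomere genes. They were searched among 9984 genes, and since the libraries fall into 3 muscles the correlations are descriptions. For Atp2a1 they were Pak1 (Pearson r = 0.974), Mybpc2 (0.944), Actn3 (0.943), Myh1 (0.943) and Camk2a (0.938). Mybpc2, Actn3 and Myh1 encode fast fibre forms of myosin binding protein C, alpha-actinin and myosin. For Atp2a2 they were Tnni1 (0.959), Xpo4 (0.950), Ndrg4 (0.949), Pkp2 (0.939) and Myl3 (0.939), of which Tnni1 and Myl3 encode slow fibre troponin I and a slow fibre myosin light chain.

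The regulators had looser companions. For Sln the closest were Ufm1 (Pearson r = 0.864), Mnat1 (0.863), Hoxd8 (0.860), Surf1 (0.860) and Klhl12 (0.849), none of them a sarcomere gene. For Pln they were Abat (0.876), Nt5c2 (0.862), Zfp821 (0.854), Pecam1 (0.847) and Gimap8 (0.834), of which Pecam1 encodes an adhesion molecule of endothelial and blood cells. Each of these 4 lists covers 13 libraries of differing depth. How high the closest of 9984 genes would reach by chance was not tested.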

How the data were processed

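RNA of 13 *mdm* libraries (TruSeq Stranded Total RNA, 75 bp paired-end reads) was analysed. The authors trimmed libraries of low base quality with Trimmomatic 0.32, aligned to GRCm38.p4 with TopHat2 2.1.1 and counted reads per gene with GenomicAlignments, and the deposited counts are whole numbers for 17924 genes. The deposited normalized signal is the count divided by 1 size factor per library (0.5023 to 2.417). Strand setting and overlap mode used in counting are not given in the sources used here. Tools are named from the submitters' processing notes and the methods.

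Muscle and replicate number came from the labels. None of the 23 library pairs of 1 muscle was a duplicate (chi-square per degree of freedom at least 53.1). A gene was kept if 3 or more libraries had a normalized count of 10 or more, and the 17069 genes kept were tested with edgeR 4.0.16 (R 4.3.3), all 13 libraries in 1 quasi-likelihood fit with a term for muscle alone, scaled by TMM. The study's methods also fit the sequencing run, which the labels do not name. Differential expression needed both an adjusted p (Benjamini-Hochberg, over all genes tested) under 0.01 and a log2 fold change above 1 in size. SE values are the log2 fold change over the root of F. Levels per kb use the merged exons of GENCODE mouse release 21. Ratios were described, not tested. DESeq2 1.42.0 and other settings were alternatives. Code was tested on simulated data. Figures were drawn with matplotlib 3.10.9.

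The member genes and all lists were chosen with earlier results of these data known. Named were the 4 members, all measured small regulators, the other pathway genes called in any comparison, at most 3 markers per list described (the most abundant) and the 5 genes of highest correlation with each member, on log2 CPM with a prior count of 2, among genes with a mean normalized count of at least 100. Casq2, Ryr2, Tnnt2 and Ucp1, and the called marker genes, were named after their values were seen, and so were Cep85l and Rabep2. Strit1 and Arln carry other names in the annotation (Gm34302 and 1810037I17Rik) and were matched by RefSeq synonyms.

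Same-numbered EDL and psoas libraries deviated together from their muscle means (correlations 0.407, 0.370, 0.316, 0.289 and 0.371), so their numbers were taken as pairs. Replicate 1 of EDL (38 days, T1) and of psoas (29 days, T3) differ in age and code, so that pair is not 1 mouse. Its correlation, 0.407, was the highest of these. The libraries of each other pair share their label code. A shared mouse, a shared code and other sources of the correlations cannot be told apart. Counting error at the depth of Pln is large, with 20 to 373 counts a library.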

Additional observations from a re-analysis of the deposited data

Results flagged for a closer look

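Dixon's test was applied to 26 groups of 5 libraries, the 4 genes and the ratios in EDL and psoas, and chance alone marks about 1 in 20 such groups. It marked 2 values. Atp2a2 in psoas replicate 3 had a normalized count of 21333, and its gap to the next library was 0.750 of the range of the group. Without this library the soleus–psoas difference of Atp2a2 passed the limit, as given above. Pln per 1000 pump transcripts in EDL replicate 1 was 6.05, with a gap of 0.742 of the range. That library had both the lowest Atp2a1 and the highest Pln of the EDL libraries.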

How the results depend on the processing

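Of the comparisons of the 4 genes, DESeq2 turned 2 into calls, Atp2a1 between soleus and EDL (-2.87) and Atp2a2 between soleus and psoas (2.31). Leaving out 1 library at a time moved these log2 fold changes over -3.06 to -2.58 and 2.20 to 2.603, and that of Pln between psoas and EDL over -0.56 to 0.053, positive without EDL replicate 1. The causes were not tested.

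The number of differentially expressed genes between psoas and EDL (841) was 1586 with DESeq2, 557 in the fit of those muscles alone and 1267 with the replicate block that pairs EDL and psoas, and 317 to 802 without 1 library. Between soleus and EDL (167) it was 633 with DESeq2 and 86 where the label code was a block, and 19 to 182 without 1 library. Between soleus and psoas (13) it was 171 with DESeq2, 6 with the label code, 8 in the 2-muscle fit and 1 with the replicate block, and 3 to 21 without 1 library. The block changed no call of the 4 genes. The soleus numbers share only a number, since same-numbered correlations ran from -0.162 to 0.421 with EDL and from -0.302 to 0.159 with psoas.

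In the calcium handling lists the calls between psoas and EDL (4) were 2 in the 2-muscle fit and 1 to 5 without 1 library. Between soleus and EDL (1) they were 7 with DESeq2, 2 with the label code, 0 in the 2-muscle fit and 0 to 2 without 1 library, and between soleus and psoas (0) they were 1 in each of these 3 settings and 0 to 1. In the marker lists they were 16 with DESeq2 and 3 to 8 without 1 library between psoas and EDL. Between soleus and EDL they were 20 with DESeq2, 6 with the label code and 1 to 12, and between soleus and psoas 11 with DESeq2, 0 in the 2-muscle fit, 0 with the replicate block and 0 to 3. Of all genes, DESeq2 called 9.29% between psoas and EDL, 3.71% between soleus and EDL and 1% between soleus and psoas.

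Within label codes, the log2 difference of Atp2a1 to Atp2a2 was -4.16 (T4), -4.01 (T5) and -0.38 (T6) between psoas and EDL, and -7.53 (T4) between soleus and EDL. For Sln per pump transcript it was 1.67, 1.07 and -0.89 between psoas and EDL, 2.50 (T4) between soleus and EDL and 1.84 (T6) between soleus and psoas. For Pln per 1000 pump transcripts it was 2.09 (T4) between psoas and EDL, and -0.067 (T4) and 2.68 (T6) between soleus and psoas. Pln per 1000 pump transcripts rose to 4.53, 6.42 and 12.0 where the same counts were divided by the length of exon not shared with another gene.

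Differences that missed the limit also turned direction for Mrln between soleus and psoas (0.55 with the replicate block, and -0.95 to 0.10 without 1 library, positive without soleus replicate 2 or psoas replicate 5), Arln between soleus and EDL (-0.055 to 0.32 without 1 library, negative without soleus replicate 3) and Strit1 between psoas and EDL (1.54 with the label code, 0.022 with the replicate block, and -0.68 to 1.26 without 1 library, positive without replicate 1 of EDL or of psoas). The Atp2b4 call ended with RLE factors, DESeq2, the label code and the 2-muscle fit, that of Hrc without the filter and with the label code, and that of Casq1 in the 2-muscle fit. The adjusted p of Strit1 between soleus and EDL was 0.0353 with the replicate block.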
